A study of Mus musculus with 2 samples.

Results

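The genes described here encode the integrins, which are the cell's main receptors for extracellular matrix, and the laminins, nidogens, perlecan and agrin, which are glycoproteins of basement membranes. They were chosen by name, as genes with a probe set of 1 symbol, with earlier results of these data known. The symbol had to be that of an integrin α (Itga) or β (Itgb) chain, of a laminin chain (Lama, Lamb, Lamc), or Nid1, Nid2, Hspg2 or Agrn. Of 18193 genes in all, 38 met this rule, and any other gene of these families was not analysed here. The 38 were 16 integrin α chains, 8 integrin β chains, 10 laminin chains and 4 other glycoproteins, read by 81 probe sets. The RNA came from primary calvarial cells of newborn mice, cleared of cells carrying CD11b, which is the product of Itgam and so of one of the genes described. Both cultures received ascorbic acid (50 µg/ml) and β-glycerophosphate (10 mM), which let osteoblasts lay down collagen and mineral. One was harvested at day 5 and the other at day 12 of differentiation, with no other treatment. Each gave 1 Affymetrix array, so no value has a replicate error and no test was possible. Every difference below is one between these 2 arrays.

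An integrin is a pair of 1 α and 1 β chain that spans the membrane. The pair sets the ligand: one group of α chains binds collagen, another laminin, and a further group binds proteins that carry the short RGD sequence, such as fibronectin, vitronectin and bone sialoprotein. Laminins are trimers of an α, a β and a γ chain that form one network of the basement membrane, with type IV collagen forming the other. Nidogens and perlecan join these networks, and agrin is a heparan sulfate proteoglycan that binds laminin. Osteoblasts use β1 and αv integrins to hold the collagenous matrix that they make, which is not a basement membrane.

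A gene's value is the signal of its brightest probe set, in the deposited units. A signal below the array's 60th percentile, 46.6 at day 5 and 44.8 at day 12, was raised to that floor, and day 12 was then divided by day 5 and the log2 taken. A gene was counted as measured when it reached the floor on at least 1 day, and where it did so on 1 day only its fold is written as "at least". Probe sets differ in how strongly they bind, so signals are compared between days and never between genes. The arrays were alike in scale, with median signals of 19.7 and 19.6 over all probe sets. In 4446 genes read by at least 2 measured probe sets, the brightest pair of log2 ratios lay a median of 0.17 apart, and the 90th percentile of that distance was 0.52. This covers differences between probe sets read on the same arrays. It covers no difference between cultures, nor in the labelling and hybridisation of each array.

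Most integrin and basement membrane genes differed little between the days. Of the 38 members, 24 were measured, 21 of them above the floor on both days, and 14 lay below it on both. Itga10 and Itgb2 were at least 2-fold higher at day 12, Itga1 was at least 2-fold lower, and the other 21 lay between. The same 2-fold limits were passed by 3.56% (higher) and 1.73% (lower) of all 10479 genes. Both directions together came to 12.5% of the measured members and 5.29% of all genes, but the counts of 2 and 1 among 24 are small. The members' median log2 ratio was -0.11, beside -0.05 for all genes, a difference whose sign turned under 3 of the 8 alternatives (the higher floor, the median of probe sets and the one that drops shared-sequence probe sets). The log2 ratio lay within 0.5 of 0 in 17 of the 24, beside 80.3% of all genes, and within 0.25 in 11, beside 54.1%. Both are smaller shares than those over all genes.

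**Figure D1:**
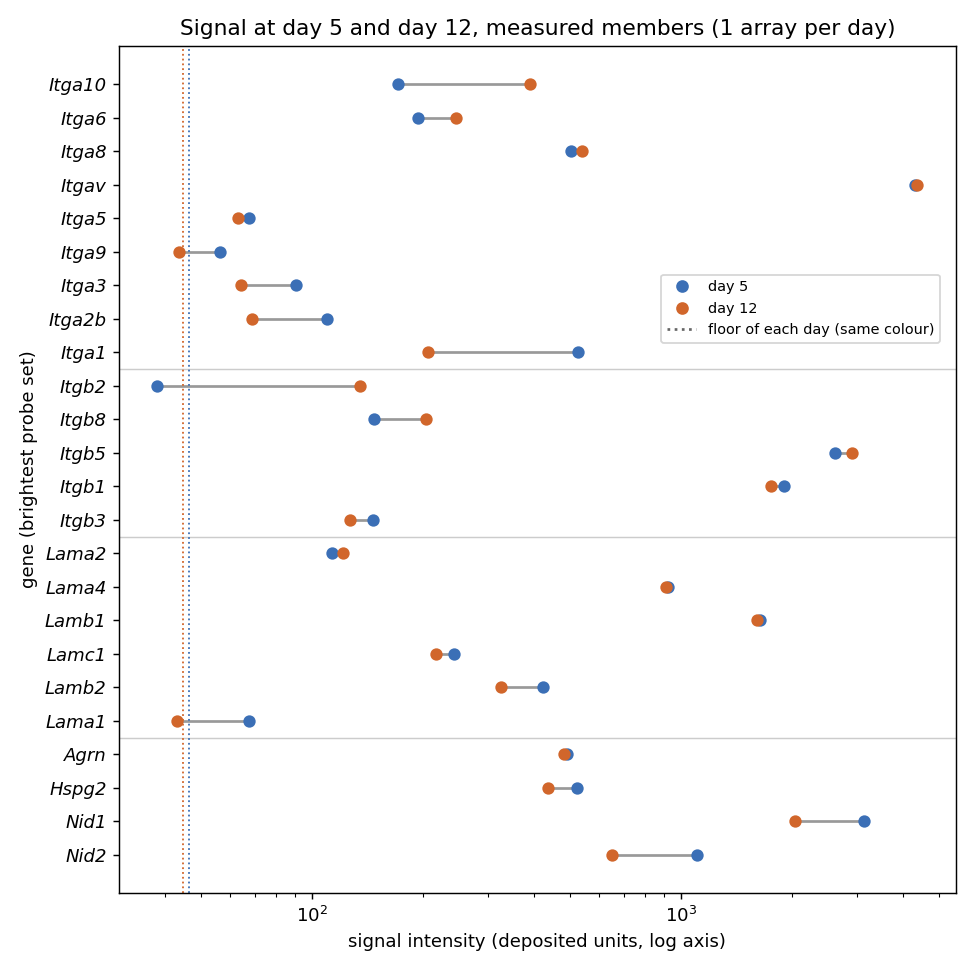
Signal intensity of the 24 measured members at day 5 (blue) and day 12 (orange), on a log axis, with the floor of each day as a dotted line in its colour and horizontal lines between α chains, β chains, laminins and the other glycoproteins. The points of a pair lie within 2-fold of each other for 21 of the 24 genes, and Itga1, Itga10 and Itgb2 show the widest gaps.

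The 2 measured of 4 collagen-binding α chains went in opposite directions. Itga1 encodes the α1 chain, whose pair with β1 binds type IV and fibrillar collagens, and its signal was 524.9 at day 5 and 205.8 at day 12, which is 2.55-fold lower (log2 ratio -1.35). Itga10 encodes the α10 chain, a collagen receptor best known from cartilage, and its signal was 170.8 at day 5 and 390.1 at day 12, which is 2.28-fold higher (log2 ratio 1.19). Both lay above the floor on both days, each on 1 measured probe set, and both stayed past 2-fold under all 8 alternative ways of processing, from -1.35 to -1.26 for Itga1 and from 1.10 to 1.29 for Itga10. Among all measured genes Itga1 stood at percentile 0.64 of the log2 ratio and Itga10 at percentile 97.3. Itga2, the α2 collagen receptor chain, lay below the floor on both days, with signals of 40.2 and 22.7. Itga11, the remaining chain of this group, had no probe set of 1 symbol and was not analysed here. In RNA from a whole culture, a lower signal from fewer cells of a type and one from less RNA per cell cannot be told apart.

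Cartilage markers went the other way from Itga10. All 13 measured of 14 chondrocyte markers had a lower signal at day 12, 9 of them by at least 2-fold, and their summed signal was 35683 at day 5 and 14019 at day 12. The lowest ratios were those of Matn1 (1507 and 11.5, at least 33.6-fold lower) and Snorc (514.0 and 38.1, at least 11.5-fold lower). Col2a1, the main collagen of cartilage, had signals of 8405 and 4439, and Acan, the cartilage proteoglycan aggrecan, 1202 and 767.4. Col10a1, a collagen of hypertrophic chondrocytes, lay below the floor on both days. Osteoblast markers were higher, by at least 2-fold in 6 of 8 measured genes, with summed signals of 22960 and 46629. Beside Itga1, which smooth muscle also makes, 7 of 11 markers of smooth muscle and pericytes were measured, with 1 at least 2-fold higher (Cspg4, 290.8 and 943.8), 1 at least 2-fold lower (Cnn1, 1799 and 829.9) and a summed signal of 20835 and 20292. Acta2 (11798.5 and 12190.6) and Tagln (6617 and 6022) made up most of that sum. Mcam, Kcnj8 and Abcc9 lay below the floor on both days. Myh11, the smooth muscle myosin, had 1 of 2 probe sets that reached the floor, with a log2 ratio of -0.07. The part of these cell types in the signals of Itga1 and Itga10 was not tested.

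The 250 bases before the start of Itga1, Itga10 and Nid1 are shown as examples, the first pair because they passed 2-fold in opposite directions and Nid1 as a basement membrane member with a lower signal in both probe sets. They were picked after their values were seen, from the 25 of 38 members with an entry in the promoter table. They come from RefSeq on build GRCm38.p6, at chr13:115101965-115102214 on the minus strand for Itga1, chr3:96645334-96645583 on the plus strand for Itga10 and chr13:13437352-13437601 on the plus strand for Nid1, each read 5′ to 3′ along the gene. Capitals mark GGAAGT, the core of many Ets family sites, CATTCC, the core of TEAD sites, or GGGCGG, the core of Sp1 sites, on either strand.
Itga1: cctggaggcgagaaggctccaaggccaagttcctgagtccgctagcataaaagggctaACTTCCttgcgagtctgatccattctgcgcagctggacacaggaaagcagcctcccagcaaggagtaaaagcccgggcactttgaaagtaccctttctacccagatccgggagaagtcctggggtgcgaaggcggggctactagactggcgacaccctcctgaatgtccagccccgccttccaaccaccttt
Itga10: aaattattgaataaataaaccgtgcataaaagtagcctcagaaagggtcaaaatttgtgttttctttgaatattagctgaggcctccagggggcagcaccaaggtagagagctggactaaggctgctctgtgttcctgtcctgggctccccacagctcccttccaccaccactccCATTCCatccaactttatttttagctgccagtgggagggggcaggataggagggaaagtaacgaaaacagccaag
Nid1: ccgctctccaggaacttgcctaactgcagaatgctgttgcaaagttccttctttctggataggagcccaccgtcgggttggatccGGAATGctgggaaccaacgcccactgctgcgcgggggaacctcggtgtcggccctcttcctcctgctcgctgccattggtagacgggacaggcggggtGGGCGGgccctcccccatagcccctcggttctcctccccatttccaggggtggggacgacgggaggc

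Itga1 held 1 GGAAGT, on the opposite strand, starting 192 bases before the start. Itga10 held 1 CATTCC 75 bases before it, and Nid1 held 1 CATTCC on the opposite strand at 165 bases and 1 GGGCGG at 67 bases. Of all 32851 promoters in the table, 19.7% held GGAAGT, 12.6% CATTCC and 32.7% GGGCGG, so none of these matches is rare. Among the 25 members with an entry, 7 held GGAAGT, 4 CATTCC and 11 GGGCGG. The core of the hypoxia-inducible factor site, ACGTG, was in 1 of the 25 (Itga9) and in 16.6% of all promoters, and TGTGGT, the Runx core, in 2 (Itga3 and Itga4) and in 14.0%. TATAAA, the TATA box, was in 0 of the 25 and in 12.4% of all. The GC content was 57.6% for Itga1, 48% for Itga10 and 64.4% for Nid1, beside a median of 52.4%. A match is a string of letters in this window and not a site in use.

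Chains that bind RGD proteins differed by less than 2-fold. Of 8, 7 were measured, all above the floor on both days, and their median log2 ratio was 0.02, with a range from -0.67 (Itga2b) to 0.47 (Itgb8). Itgav encodes αv, the shared α chain of the vitronectin receptors, and its signal was 4299 at day 5 and 4371 at day 12. The log2 ratio of Itgav was 0.02 in this probe set and -0.27 in a dimmer one. Itgb5, an αv partner, had signals of 2608 and 2908, and its 4 measured probe sets gave log2 ratios from 0.04 to 0.24. Itgb3, the partner of αv in osteoclasts and of αIIb in platelets, had signals of 146.0 and 126.7. Itgb8, an αv partner that helps release active TGF-β, had signals of 147.1 and 203.7 (log2 ratio 0.47, or 0.16 with the floor at the 75th percentile). Itga8, the receptor chain for nephronectin, had signals of 503.0 and 539.4, with log2 ratios of 0.10 and 0.11 in its pair of measured probe sets. Itga5, the fibronectin receptor chain, read 67.6 and 63.2, little above the floor, and Itgb6, an epithelial chain, lay below the floor on both days.

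Itga2b, the RGD-binding platelet chain αIIb, had the second lowest log2 ratio among the integrins, -0.67, with signals of 109.8 and 69.1. Of the 10 markers listed for megakaryocytes and platelets, 8 had a probe set and 2 were measured, with a summed signal over the 8 of 388.3 at day 5 and 734.6 at day 12. Gp9 and Gp5, platelet glycoprotein genes, lay below the floor on both days. Pf4, which macrophages also make, had signals of 248.8 and 593.8, and Gp1bb 73.2 and 80.3. The sum was higher at day 12 mainly through Pf4, and the part of these cells in the signal of Itga2b was not tested.

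Itgb1, the β chain shared by most matrix receptors, was level. Its brightest probe set had signals of 1902 and 1753 and the next 1702 and 1780, with log2 ratios of -0.12 and 0.06, and a dimmer probe set gave 0.37. Its direction therefore depends on the probe set. Since α1 and α10 pair with β1 alone, their opposite ratios stand beside a β chain within 0.2 of 0 in both bright probe sets. Of 24 integrin pairs known in mammals whose chains were looked up, 11 had both chains above the floor on both days. These were β1 with α1, α3, α5, α6, α8, α10 and αv, β3 with αIIb and αv, and αv with β5 and β8. Among the others, α11β1 and αDβ2 could not be judged, because Itga11 and Itgad had no probe set of 1 symbol.

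Laminin-binding integrin chains were also within 2-fold. Itga6, the α6 chain of laminin receptors, had signals of 194.0 and 245.6, and its 2 measured probe sets gave log2 ratios of 0.34 and 0.23. Itga3, the α3 chain, had signals of 90.5 and 64.2 (log2 ratio -0.50) in 1 of its 3 probe sets, little above the floor at day 12. The others lay below the floor on both days, and Itga3 was not measured with the floor at the 75th percentile. The α6 and α3 chains both pair with β1, and their ratios point in opposite directions. Itga7, the muscle laminin receptor chain, and Itgb4, the hemidesmosome chain of epithelia, lay below the floor on both days, with signals of 9.01 and 19.3 for Itga7 and 11.7 and 20.2 for Itgb4. Itga9, a receptor chain for tenascin-C, had signals of 56.6 and 43.7 in its brightest probe set and 36.8 and 54.4 in another, with log2 ratios of -0.34 and 0.22, so it has no settled direction. Itga4, the α4 chain that binds VCAM-1 and fibronectin, had signals of 12.0 and 44.1, just short of the floor, and was at least 2.24-fold higher when the floor was set at the 50th percentile.

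**Figure D2:**
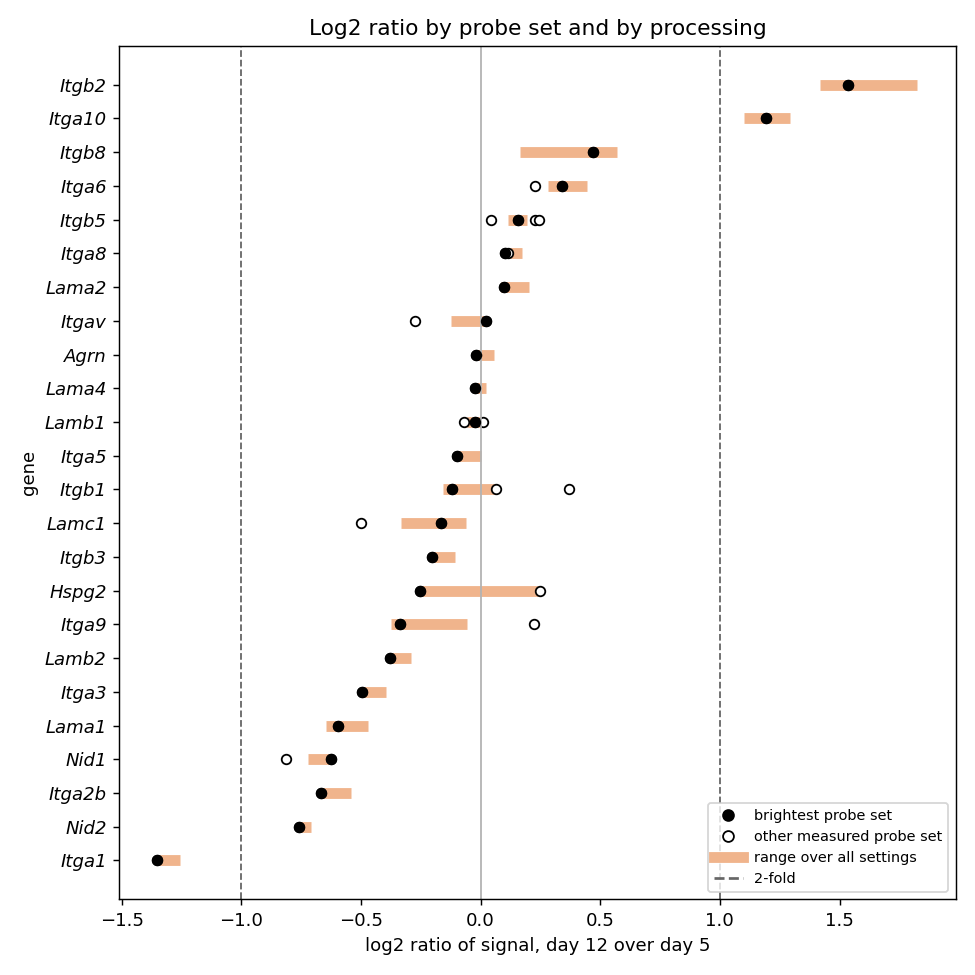
Log2 ratio of day 12 over day 5 for each measured member, with the brightest probe set as a filled point, other measured probe sets as open points, the range over the reported and alternative processing as an orange bar, and 2-fold as dashed lines. Itga1, Itga10 and Itgb2 lie outside the dashed lines over their whole bars, and Hspg2, Itga9, Itgb1, Itgav and Lamb1 have open points on the other side of 0 from the filled ones.

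The leukocyte β chain was higher at day 12 although the cells had been cleared of CD11b. Itgb2 encodes β2, found on leukocytes, and its signal was 38.2 at day 5, below the floor, and 135.3 at day 12, which is at least 2.90-fold higher (log2 ratio 1.54). The one probe set lay below a floor at the 75th percentile on both days and so was not measured there, and the log2 ratio was from 1.42 to 1.83 under the other alternatives. Itgam, the CD11b chain that pairs with β2, lay below the floor on both days, with signals of 14.6 and 35.4, and was at least 1.80-fold higher when the floor was set at the 50th percentile. Itgal, Itgax, Itgae and Itgb7, chains of other leukocyte receptors, lay below it too, with signals of 2.42 and 19.0 for Itgal, 13.1 and 8.36 for Itgax, 7.79 and 19.5 for Itgae and 17.8 and 11.6 for Itgb7.

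Most myeloid markers were higher on the same array as Itgb2. Of 23 markers of myeloid cells and osteoclasts, 19 were measured, of which 14 passed 2-fold upward at day 12 and none downward, with a median log2 ratio of 1.33 and a summed signal of 9658 at day 5 and 19807 at day 12. Tyrobp, an adaptor of myeloid receptors, had signals of 209.7 and 917.7, Csf1r, the receptor for the macrophage growth factor, 811.6 and 1778, and Ptprc, the pan-leukocyte CD45, 60.9 and 134.1. Osteoclast genes of the list differed from these: Acp5, the acid phosphatase of osteoclasts, had a log2 ratio of -0.24, the protease genes Mmp9 and Ctsk -0.36 and 0.36, and Oscar, Ocstamp, Dcstamp and Calcr lay below the floor on both days. With Cx3cr1, level at -0.02, 3 of the 19 had a ratio below 0. None of 8 lymphocyte and none of 7 mast cell markers with a probe set was measured. Fermt3, the kindlin of blood cells that activates β2 integrins, had signals of 92.2 and 181.9 (log2 ratio 0.98). The part of myeloid cells in the signal of Itgb2 was not tested.

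**Figure D3:**
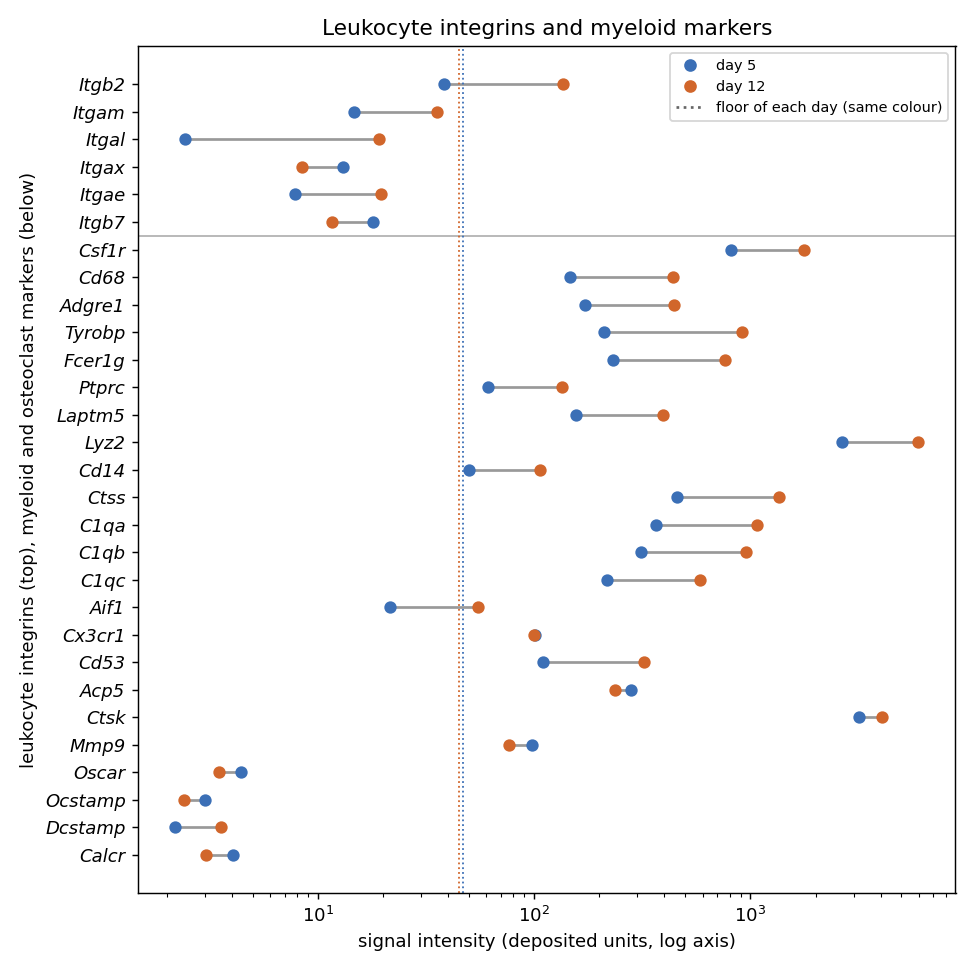
Signal intensity at day 5 (blue) and day 12 (orange) on a log axis for 6 leukocyte integrin genes (above the line) and 23 myeloid and osteoclast markers (below it), with the floors dotted. Itgb2 is the one integrin of the 6 that crosses the floor, and most markers lie to the right at day 12, while Acp5 and Mmp9, both above the floors, lie to the left.

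Laminin chains were nearly level, with a median log2 ratio of -0.09 over 6 measured of 10. Lama4, the α4 chain of mesenchymal and vascular laminins, had signals of 922.6 and 908.9, and Lama2, the α2 chain of muscle and nerve laminins, 113.3 and 121.2. Lamb1, the β1 chain, had signals of 1633 and 1607, and its 3 measured probe sets gave log2 ratios from -0.07 to 0.01. Lamc1, the γ1 chain shared by most laminins, had signals of 243.2 and 216.8 in one probe set and 72.5 and 51.3 in another, with log2 ratios of -0.17 and -0.50. Lamb2, the β2 chain, had signals of 424.2 and 325.9 (log2 ratio -0.38). Lama1, the α1 chain of embryonic laminin, was 67.7 at day 5 and 43.2 at day 12, at least 1.51-fold lower, but near the floor. Of 8 laminin trimers looked up, 4 had all 3 chains above the floor on both days, which were α2 or α4 with β1 or β2 and γ1. Lama3, Lamb3, Lama5 and Lamc3 lay below the floor on both days.

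The nidogens had a lower signal at day 12. Nid1 had signals of 3140 and 2034 in one probe set and 550.3 and 313.5 in the other, with log2 ratios of -0.63 and -0.81. Nid2 had signals of 1103 and 651.7 (log2 ratio -0.76). Both were lower at day 12 by 1.54-fold and 1.69-fold, short of 2-fold, and both stayed between -0.76 and -0.62 under every alternative. At a threshold of 1.5-fold, 5 of the 24 members were lower (Itga1, Itga2b, Nid1, Nid2 and Lama1) and 2 were higher, beside 7.70% and 7.25% of all genes. Agrn, the agrin gene, had signals of 490.1 and 483.1. Hspg2, the perlecan gene, had 521.2 and 437.3 in one probe set and 201.0 and 238.8 in the other, with log2 ratios of -0.25 and 0.25, so it has no settled direction.

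By role, 9 of the 10 measured laminin, nidogen, perlecan and agrin genes had a log2 ratio below 0, against 7 of the 14 measured integrin chains and 56.4% of all genes. Their medians were -0.21 and -0.04, the first of which was -0.12 after loess and -0.09 without shared-sequence probe sets. The 9 of 10 became 7 of 10 in both of these cases. The 9 also include Agrn, Lama4 and Lamb1, each at -0.02 and so above the median of all genes (-0.05). Hspg2, which has no settled direction, is among them too. Other genes of the basement membrane also mostly had a ratio below 0. All 5 measured of 9 basement membrane collagen genes had a ratio below 0 (4 of 5 after loess), with a median of -0.46. Col4a5, a type IV chain, was 2.18-fold lower, with signals of 1383 and 635.8 (its second probe set gave -0.94 on the log2 scale). Col4a1 and Col4a2, the chains of the most widespread type IV collagen, had signals of 3758 and 2732 and of 1379 and 1032, and Col18a1 342.3 and 200.2. The log2 ratio of Col4a1 was -0.46 in its brightest probe set but -0.11 in the second. Of 12 measured other basement membrane proteins 10 had a ratio below 0 and none passed 2-fold, with a median of -0.31. Fbln2, a fibulin that binds nidogen, had signals of 1643 and 841.0, and Pxdn, which cross-links type IV collagen, 1190 and 762.8. The exceptions were Npnt, the ligand of α8β1, with signals of 2456 and 2523 but log2 ratios from -0.40 to 0.04 over 5 probe sets, and Sparc, a collagen-binding matrix protein, with 14277 and 16813.

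Among cells that rest on basement membranes, markers of endothelium, epithelium and skeletal muscle were mostly below the floor. Of 14 endothelial markers 3 were measured, none past 2-fold, with a summed signal of 287.3 at day 5 and 317.0 at day 12, and Pecam1, Cdh5 and Kdr lay below the floor on both days. Of 10 epithelial markers 2 were measured, with a sum of 259.3 and 272.6. Of 11 skeletal muscle markers only Acta1 was measured (235.0 and 72.8), and Myod1, Myog and Pax7 lay below the floor. Of 8 Schwann cell and neuron markers 4 were measured, with 1 at least 2-fold higher (Tubb3, 58.5 and 139.4) and 1 at least 2-fold lower (S100b, 1290 and 590.4). The sum over the 8 was 3993 and 3061, most of it from Pmp22 (2524 and 2251) and S100b. Sox10, Gfra3, Foxd3 and Snap25 lay below the floor on both days. Of 5 adipocyte markers 4 were measured, 3 of them with a ratio below 0 (median -0.64), and the sum of 1107 and 1758 was higher at day 12 through Lpl, the 1 at least 2-fold higher. The chondrocyte markers given above were lower on the same array as the nidogen and type IV collagen genes, and their part in these signals was not tested.

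**Figure D4:**
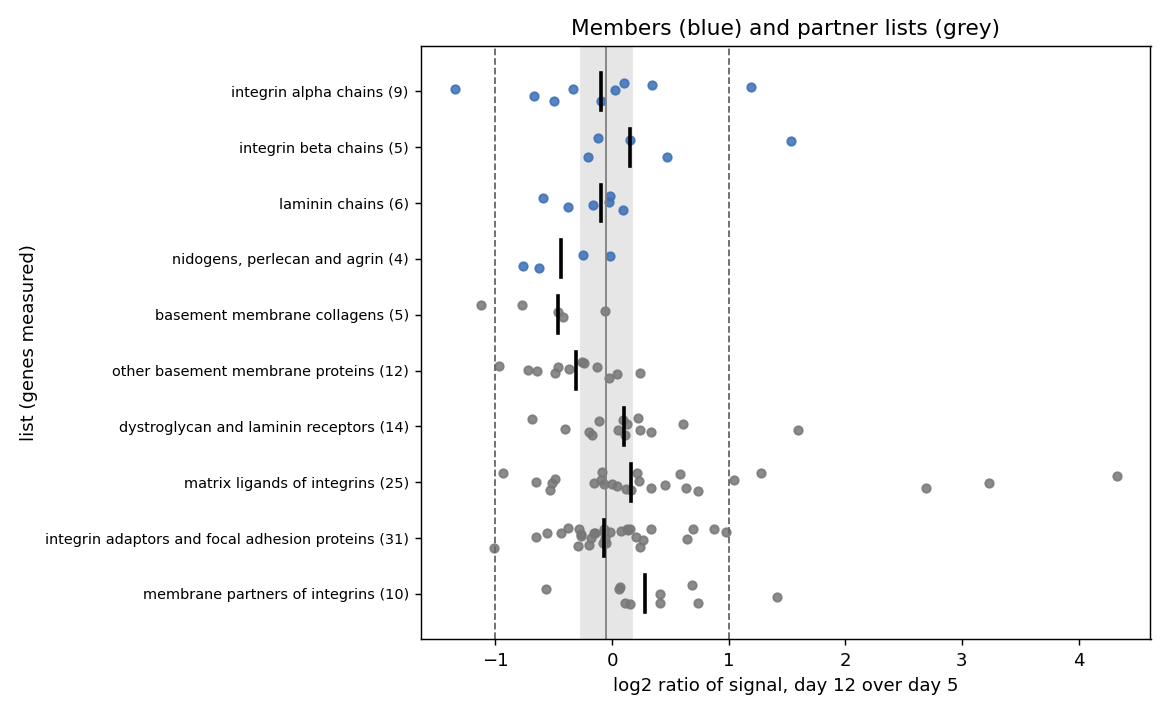
Log2 ratio of day 12 over day 5 for each measured gene of the member groups (blue) and of the partner lists (grey), with each list's median as a black bar, the range between the quartiles of all measured genes as a grey band, their median as a grey line and 2-fold as dashed lines. The medians of the nidogen group (-0.44), the basement membrane collagens (-0.46) and the other basement membrane proteins (-0.31) lie left of the band, which runs from -0.27 to 0.17, and that of the membrane partners (0.28) lies right of it.

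The matrix ligands of integrins included the genes with the largest differences of the partner lists. Of 25 measured, 5 passed 2-fold upward at day 12 and none downward, with a median log2 ratio of 0.16, or 0.03 under quantile normalisation or loess and 0.08 when a gene's median probe set was used. They were Dmp1, Ibsp and Mepe, RGD proteins of bone mineral, Tnn, a tenascin, with signals of 303.7 and 627.8, and Tgfb1, whose latent form αv integrins bind, with 66.2 and 160.4. Ibsp, the bone sialoprotein gene, had signals of 1098 and 10334, a log2 ratio of 3.23 (5.24 in its second probe set). Its receptor chains Itgav, Itgb3 and Itgb5 gave -0.20 to 0.16 in their brightest probe sets and -0.27 to 0.24 over all measured ones. Fn1, the fibronectin gene, had signals of 10929 and 11863, and Vcam1, a ligand of α4 integrins, 1327 and 845.3. Signals this near the top of the scale, as those of Fn1 and Sparc, can be compressed.

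Of laminin and agrin receptors outside the integrins, 1 of 14 measured passed 2-fold. This was Lrp4, a receptor of agrin and of the Wnt inhibitor sclerostin, with signals of 147.2 and 444.0 (3.02-fold higher, 1 probe set). Musk, which works with Lrp4 in muscle, lay below the floor on both days. Dag1, the laminin receptor dystroglycan, had signals of 1873 and 1942, and Sdc1, a syndecan that binds laminin, 1407 and 872.3. Of 10 measured membrane partners of integrins, 9 had a log2 ratio above 0, beside 4564 of all 10479 measured genes. The count was 8 of 10 under quantile normalisation or loess. Their median was 0.28, or 0.15 with the floor at the 75th percentile. Cd36, a scavenger receptor, was at least 2.66-fold higher (32.7 and 124.2). The exception was Cd151, the tetraspanin of laminin-binding integrins, with signals of 1627 and 1100. Cd9, another tetraspanin, was level at 3030 and 3271.

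Integrin adaptors and focal adhesion proteins were close to the median of all genes, with a median log2 ratio of -0.07 over 31 measured, 30 of them within 2-fold. Zyx, the zyxin of focal adhesions, was 2.02-fold lower in its brightest probe set (648.9 and 321.4), whereas the second one pointed the other way, at 0.35 on the log2 scale. Ilk, which ties β1 integrins to actin, had signals of 1258 and 853.1, Pxn, the adaptor paxillin, 679.8 and 501.0, and Cav1, the caveolae protein, 2346 and 1490. Tln1, which switches integrins on, had signals of 575.1 and 519.1, Fermt2, the kindlin of most tissues, 3090 and 3573, and Vcl, the vinculin gene, 5049 and 6073. Lims2, of the complex around Ilk, had signals of 98.3 and 180.6.

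Collagens and cadherins give a scale for these sizes. Of 30 measured collagen chains 4 passed 2-fold in each direction, with a median size of the log2 ratio of 0.45, and of 18 measured cadherins and protocadherins none passed 2-fold, with a median size of 0.30. The members' median size was 0.29, and that of all genes 0.23. With 1 array per day these differences between families were not tested.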

How the data were processed

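RNA of 2 samples, 1 per day, was labelled with biotin from 5 µg of total RNA and hybridised to 1 array each, per the labels' protocols. The authors deposited signal intensity on a linear scale for 45101 probe sets, made with GCOS 1.4 and MAS5 per the submitters' processing notes. The trimmed mean (2% at each end) was 200.0 on both arrays, so each was scaled to one target, and a change in total RNA per cell cannot be seen. The authors' genome build is not given in the sources used here.

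Names came from the annotation of the platform, with 34945 probe sets having 1 symbol, 932 several and 9160 none (controls left out). Of those with 1 symbol, 34741 were found by Entrez number in a table of GRCm38.p6. The symbol of that table was then used, whether or not it differed. Near-identical genes can share probe signal. With 1 array per group no test was made, and a gene was called at 2-fold. Members, gene lists, thresholds and motifs were chosen with earlier results of these data known. All measured members are named, and so are the genes past 2-fold in the partner lists. Of the marker lists only some of the genes past 2-fold are named. Other genes named from these lists, also those below the floor, were picked for their role after their values were seen. Usp9x, which is no basement membrane protein, was dropped from its list after its values were seen. Alternatives were median centring, quantile normalisation, loess (span 0.3), a lower and a higher floor (50th and 75th percentile), adding a pseudocount of 20 with no floor, a gene's median probe set, using only probe sets without shared sequence, and calling at 1.5-fold or 3-fold. The scripts were checked on simulated data with planted changes. Tools were matplotlib 3.10.9, statsmodels 0.14.6, scipy 1.17.1, pandas 2.3.3, numpy 2.4.6 and Python 3.11.15.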

Additional observations from a re-analysis of the deposited data

How the results depend on the processing

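No paired analysis was possible because there is 1 array per day. Of the members' log2 ratios under the 8 alternatives, 177 moved by no more than the 0.17 that separates probe sets of 1 gene, and 6 moved by more, in Itga9, Itgb1, Itgb2, Itgb8 and Hspg2. None of the 3 members past 2-fold changed direction in any alternative that measured it. With the floor at the 75th percentile, where 16 members were measured, 1 member and 1 integrin chain were at least 2-fold higher in place of 2, the matrix ligands held 3 such genes in place of 5, and the membrane partners 0 in place of 1. With the floor at the 50th percentile, where 29 were measured, Itga4 was also at least 2-fold higher, 1 other basement membrane protein was at least 2-fold lower in place of 0, and 2 laminin receptors outside the integrins were higher in place of 1, as also with the pseudocount. At a 3-fold threshold 0 members were called in either direction, and at 1.5-fold 5 were lower in place of 1. Among the adaptors, the count at least 2-fold lower was 0 in place of 1 under quantile normalisation, after loess, with the pseudocount and with the median of probe sets, and the count higher was 1 in place of 0 under quantile normalisation and after loess. The integrin chains' median was above 0 with both other floors, with the median of probe sets and without probe sets of shared sequence, up to 0.13. The number of arrays limits every value, and signals near the floor are the least certain.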
